A study of Physcomitrium patens with 4 samples.

Results

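The comparison described here is that of freshly isolated protoplasts (t-0 protoplasts) with the cells that had developed from them after 24 h of culture in darkness (t-24 cells) in the moss Physcomitrella patens, now called Physcomitrium patens. It was defined by culture time alone and used 2 of the 4 libraries of a time course of protoplast reprogramming. All 18800 genes listed in the deposited counts were considered, and 15077 of them had enough tags to be compared. Both samples came from a wild-type strain. The t-0 protoplasts had just been released from young protonemata, the filaments of the moss, by digestion of the cell wall with Driselase in mannitol solution. The t-24 cells came from such protoplasts kept in liquid medium without hormones, with ammonium tartrate and mannitol added. Cells were pooled at each time for RNA extraction and gave 1 library, without replicates.

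A protoplast is a plant cell without its wall. Moss protoplasts rebuild the wall in simple medium, return to the cell cycle and grow out as new filaments, without added hormones and without a callus stage. The protonemal filaments from which they are made are rich in chloroplasts, and in green plants the transcripts of many nuclear genes for photosynthesis depend on light. The t-0 library was made from freshly digested cells, and intact protonemata were not analysed here. The t-24 cells had spent the whole interval in darkness, so that the passage of time in culture, the recovery from digestion and the absence of light cannot be told apart.

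Expression was measured by digital gene expression tag profiling, in which each transcript gives a short sequence tag next to a CATG site near its end and the tags of a gene are counted. Tags that fitted more than 1 gene had been removed, so that nearly identical gene copies were counted only on the tags that distinguish them. The genes had 2247746 tags in t-0 protoplasts and 1750184 in t-24 cells. The fold changes below are ratios of tag counts after library sizes were scaled, and the values in parentheses after them are 95% intervals, which cover only counting error. Genes were called higher or lower when they differed at least 4-fold, had at least 100 tags in the higher library and passed edgeR's exact test between the 2 libraries, with a p-value and an adjusted p-value of at most 0.01. No gene with 100 tags past 4-fold failed these p-values (0 genes), so that in effect the fold and the tag minimum made the calls. The test sets 2 libraries against each other and does not compare the conditions, because nothing measured how much separate cultures vary. Where a gene had 0 tags in a library, the fold is a lower bound computed from 3 tags. In such bulk samples, fewer cells of a type and less RNA per cell cannot be told apart. Gene symbols and functions are those of the Arabidopsis match given with each moss gene. Genes marked † were chosen after their values were seen, and so were the families into which some of the gene lists are divided.

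Between t-0 protoplasts and t-24 cells 366 genes were called higher and 736 were called lower, which is 2.43% and 4.88% of the genes tested. The median gene changed by -0.08 on the log2 scale. The 5th and 95th percentiles of the log2 change were -3.42 and 2.73. Among the 5514 genes that reached 100 tags in the higher library, 2837 (51.5%) stayed within 2-fold. Although fewer genes were called higher, the largest changes were more often increases, with 47 genes higher and 12 lower by at least 64-fold, counting the lower bound where a library had 0 tags. At 16-fold the numbers were 114 higher and 121 lower. A further 1007 genes higher and 1116 genes lower passed 4-fold with fewer than 100 tags and were not called.

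**Figure D1:**
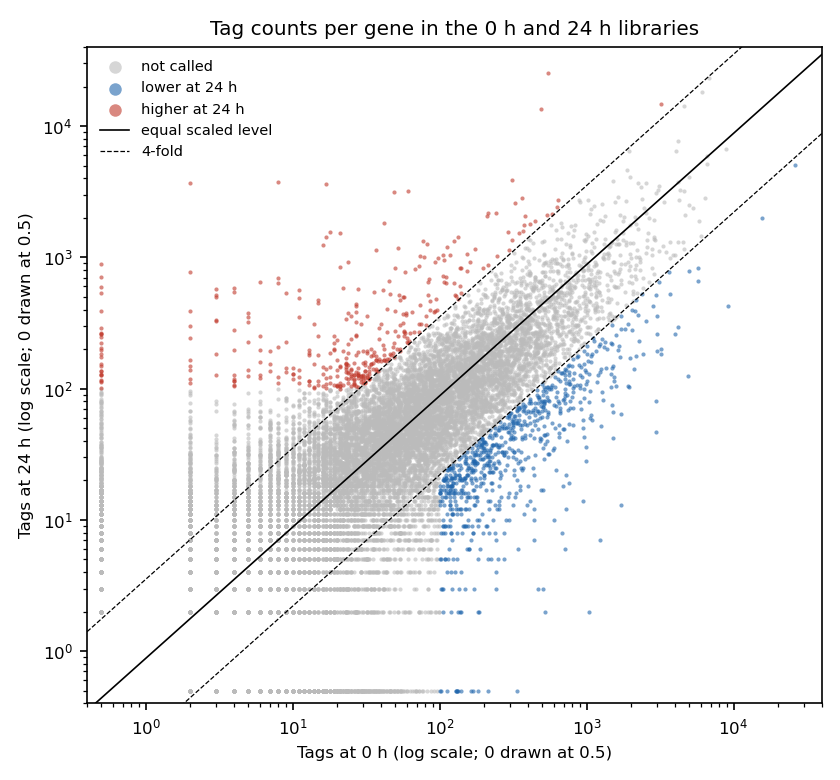
Tag counts of each gene in t-0 protoplasts (x axis) and t-24 cells (y axis), both on log scales with 0 drawn at 0.5. Each point is a gene, red if called higher at 24 h (366 genes), blue if called lower (736 genes) and grey if not called. The solid line marks equal scaled levels and the dashed lines 4-fold changes.

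Most genes were detected at both times. Tags of 14908 genes were found in both libraries, 1802 genes had tags only at 0 h and 1370 only at 24 h. The genes seen at a single time were mostly rare, with a median of 4 tags for those seen only at 0 h and 5 for those seen only at 24 h. Among them, 14 genes were called lower with 0 tags at 24 h and 26 were called higher with 0 tags at 0 h. Chloroplast genes, by which the green cells were checked, were present in both libraries, with tags of 34 of 36 antenna genes at each time. The 14 listed genes of the small subunit of RuBisCO, the enzyme that fixes CO2, had 1407 tags in all at 0 h and 469 at 24 h.

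The set of abundant transcripts was largely exchanged. The 100 genes with the most tags of each library had 37 genes in common, and they took 17.1% of all gene tags at 0 h and 20.6% at 24 h. Of the 100 genes with most tags at 24 h, 28 were called higher, and of the 100 with most tags at 0 h, 30 were called lower. Among the 10 genes with most tags in each library, 3 were shared. The gene with most tags in t-24 cells, Pp1s52_261V6, rose from 548 to 25237 tags (52.4-fold, 48.1 to 57.1), and Pp1s67_30V6 rose from 493 to 13545 tags (31.3-fold, 28.6 to 34.3). Neither has a description in the files. CCR1 (Pp1s42_251V6), matched to an Arabidopsis RNA-binding protein under cold and clock control, had 6847 and 23375 tags, which at 3.88-fold (3.78 to 3.99) lay just under the threshold. In t-0 protoplasts the gene with most tags was GSTF9 (Pp1s66_172V6), a glutathione S-transferase, which fell from 26187 to 5006 tags (4.60-fold, 4.46 to 4.74). Next was a SUI1 family gene (Pp1s4_134V6), which is matched to a translation initiation factor and fell from 15742 to 1993 tags (6.95-fold, 6.63 to 7.28). The undescribed gene Pp1s109_232V6 fell from 9203 to 427 tags (19.0-fold, 17.2 to 20.9). TCTP (Pp1s33_209V6), a growth-related protein of nearly all eukaryotes, stood in both sets of 10 with 8916 and 6655 tags and was not called.

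Functional lists drawn from the Arabidopsis descriptions held 7029 genes. Of 51 lists, 38 had more genes called lower than higher, 9 had more called higher and 4 had as many of each. The genes of photosynthesis, plastid translation, nutrient assimilation, chaperones and wall remodelling were prominent among those that fell. Increases exceeded decreases among protectants against water loss, in amino acid breakdown and, with few calls, in DNA repair. Under other processing choices 2 to 14 genes of amino acid breakdown and 0 to 8 of DNA repair were called higher.

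**Figure D2:**
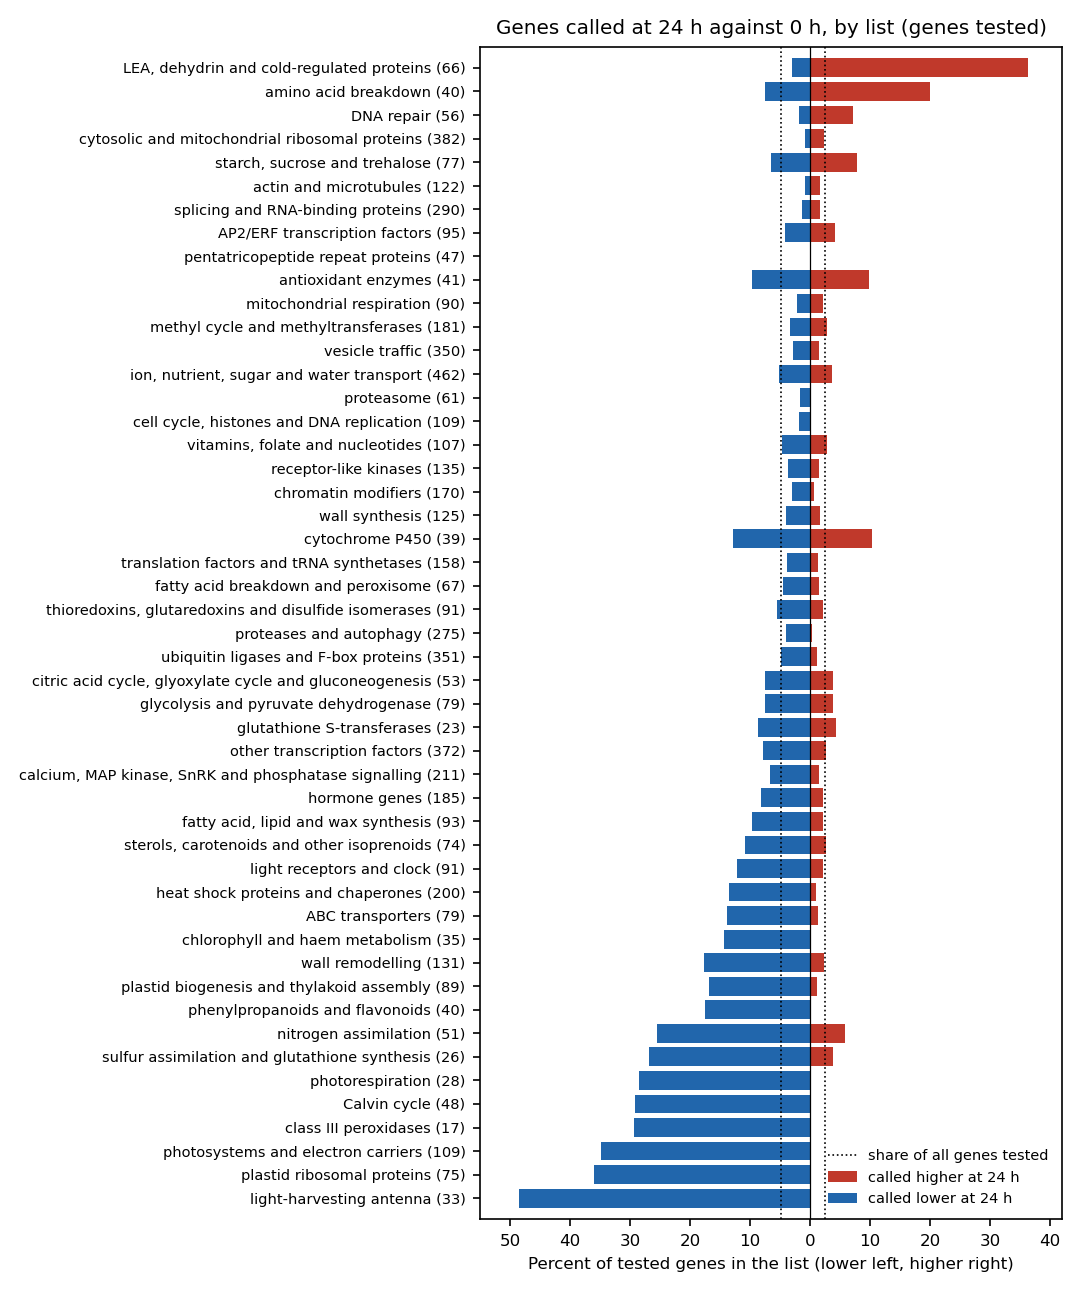
Percent of the tested genes of each list called lower (blue, to the left) or higher (red, to the right) in t-24 cells, for lists with at least 15 genes tested, whose number stands in parentheses. The dotted lines mark the shares over all genes tested, 4.88% lower and 2.43% higher. The longest bar to the left is that of the antenna (48.5%) and the longest to the right that of LEA, dehydrin and cold-regulated proteins (36.4%).

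Genes of the light reactions were called lower or not called in t-24 cells, and 0 of those tested were called higher. The light-harvesting antenna proteins, which bind chlorophyll and pass light energy to the photosystems, had 16 of 33 tested genes called lower (48.5%) and 0 called higher, with a median log2 change of -2.56. None of the 33 lay above the median of all genes (0 genes). Together the antenna genes took 1.22% of gene tags at 0 h and 0.389% at 24 h. LHCB2.1 (Pp1s12_390V6), an antenna protein of photosystem II, fell from 238 to 8 tags (26.2-fold, 13.1 to 61.3). The photosystem I antenna gene LHCA1 (Pp1s158_109V6) fell from 360 to 25 tags (12.7-fold, 8.44 to 19.8). The neighbouring LHCB5 genes Pp1s6_312V6 and Pp1s6_313V6, for a minor antenna protein of photosystem II, fell from 1966 to 171 and from 2259 to 230 tags. Members were not uniform, since the abundant LHCB2.2 (Pp1s213_80V6) had 6420 and 2855 tags, a difference of 1.98-fold that was not called.

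Photosystem and electron carrier genes followed the same direction, with 38 of 109 lower (34.9%), 0 higher and a median of -1.42. Of the 109, 20 lay above the median of all genes. Under other processing choices 0 to 2 were called higher. PSBO2 (Pp1s25_66V6), a subunit of the oxygen-evolving complex, fell from 223 to 5 tags (39.2-fold, 16.6 to 122). Plastocyanin (PETE1, Pp1s3_520V6), which carries electrons to photosystem I, fell from 1513 to 66 tags (20.2-fold, 15.8 to 26.2). ATPC1 (Pp1s372_16V6), the gamma subunit of the chloroplast ATP synthase, fell from 212 to 5 tags, and PSAF† (Pp1s80_23V6), a subunit of photosystem I, from 1496 to 75. NPQ4† (Pp1s241_86V6), which in Arabidopsis is needed to dissipate excess light energy, fell from 225 to 19 tags (10.4-fold, 6.51 to 17.6).

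The Calvin cycle, in which CO2 is fixed into sugar phosphates, had 14 of 48 genes lower (29.2%) and 0 higher, with a median of -1.52. The plastid glyceraldehyde-3-phosphate dehydrogenase genes were much reduced. GAPA-2 (Pp1s135_29V6) fell from 697 to 18 tags (34.1-fold, 21.4 to 57.8) and GAPB† (Pp1s86_156V6) from 723 to 22 (28.9-fold, 18.9 to 46.4). RuBisCO activase (RCA†, Pp1s258_44V6) fell from 3022 to 360 tags (7.38-fold, 6.62 to 8.26), and a small subunit gene matched to RBCS1A (Pp1s66_48V6) fell from 141 to 0 tags, at least 41.3-fold lower. In photorespiration, which recovers the product of RuBisCO's reaction with oxygen, 8 of 28 genes were lower and 0 higher. PGLP1 (Pp1s34_237V6), its entry enzyme phosphoglycolate phosphatase, fell from 293 to 15 tags (17.2-fold, 10.2 to 31.1). A glycine cleavage T-protein gene (Pp1s91_92V6) fell from 654 to 43 tags.

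Carbonic anhydrases, which interconvert CO2 and bicarbonate, were split. CA1 (Pp1s264_55V6) fell from 2959 to 47 tags (55.4-fold, 41.5 to 75.5). In contrast, the genes matched to CA2 rose, Pp1s196_53V6 from 54 to 475 tags (10-fold, 7.54 to 13.5) and Pp1s43_118V6 from 541 to 2118 (4.45-fold, 4.05 to 4.90). The whole list of 9 genes took 0.166% of tags at 0 h and 0.155% at 24 h. The other 6 genes had at most 79 tags in either library and were not called.

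Chlorophyll and haem metabolism had 5 of 35 genes lower and 0 higher. PORA (Pp1s108_171V6), the enzyme that reduces protochlorophyllide in the light, fell from 814 to 53 tags (13.5-fold, 10.2 to 18.2), and CHLM (Pp1s372_25V6), an earlier enzyme of the chlorophyll branch, fell from 152 to 14. In plastid biogenesis and thylakoid assembly 15 of 89 genes were lower and 1 was higher. CYP38 (Pp1s90_50V6), a lumen protein required for assembly of photosystem II in Arabidopsis, fell from 242 to 4 tags (53.2-fold, 20.5 to 197). TLP18.3 (Pp1s123_97V6), which acts in photosystem II repair, fell from 1300 to 82 tags (13.9-fold, 11.2 to 17.7). The exception was COR314-TM2 (Pp1s2_226V6), matched to a cold-regulated membrane protein, which rose from 643 to 2727 tags (4.82-fold, 4.43 to 5.26).

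The plastid's own protein synthesis showed a like decrease. Of 75 nuclear genes for plastid ribosomal proteins tested, 27 were lower (36.0%) and 0 higher, the median was -1.81, and their share of tags went from 0.777% to 0.258%. The L35 gene Pp1s324_20V6 fell from 502 to 17 tags (25.96-fold, 16.1 to 44.9) and RPL12-A (Pp1s215_82V6) from 168 to 8 (18.5-fold, 9.16 to 43.5). The ribosomal proteins of cytosol and mitochondria moved otherwise, as described below.

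Light receptors and clock genes had 11 of 91 genes lower and 2 higher. The 2 that rose were both matched to phytochrome B, the red light receptor PHYB, with 32 and 186 tags for Pp1s47_31V6 (6.61-fold, 4.53 to 9.95) and 28 and 121 for Pp1s81_159V6 (4.92-fold, 3.24 to 7.70). A gene for the blue light receptor PHOT2† (Pp1s179_27V6) fell from 112 to 19 tags (5.18-fold, 3.17 to 8.93). CCA1 (Pp1s96_165V6), a transcription factor at the core of the circadian clock in Arabidopsis, fell from 103 to 0 tags, at least 30.2-fold lower. PLPB (Pp1s318_13V6), with a blue light sensing domain, fell from 1829 to 282 tags, and CDF2 (Pp1s392_2V6), which controls flowering time in Arabidopsis, from 436 to 57. The hour of day at which each library was collected is not given in the sources used here, and its part in the clock genes was not tested.

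**Figure D3:**
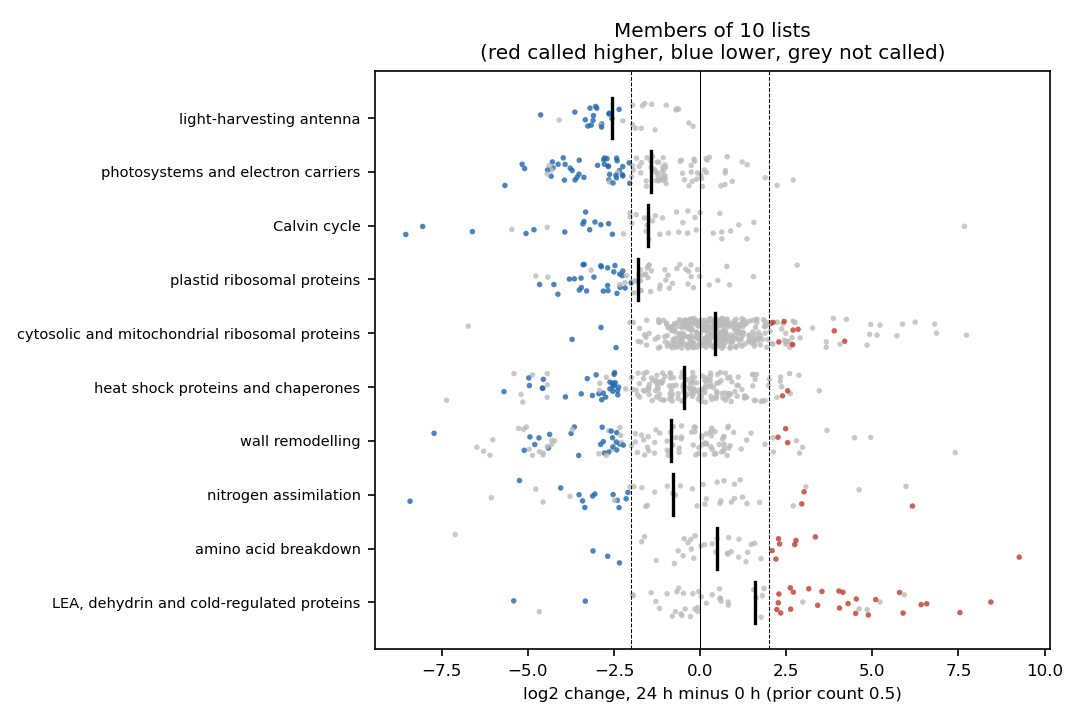
The log2 change from 0 h to 24 h (x axis) of every tested gene in 10 lists (rows), with genes called higher in red, lower in blue and not called in grey. The black bar is the median of the list and the dashed lines mark 4-fold. The medians lie at -2.56 for the antenna, -1.81 for plastid ribosomal proteins, 0.44 for cytosolic and mitochondrial ribosomal proteins and 1.59 for LEA, dehydrin and cold-regulated proteins.

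In carbon metabolism the calls were fewer and went both ways. Starch, sucrose and trehalose genes had 6 of 77 higher and 5 lower. Of 14 genes described as ADP-glucose pyrophosphorylase, which makes the glucosyl donor for starch, 3 were higher and 1 lower. APL1 (Pp1s397_21V6), a large subunit of this enzyme, rose from 5 to 322 tags (73.2-fold, 31.1 to 227), and a second APL1 gene† (Pp1s237_47V6) and APL2 (Pp1s175_26V6) rose from 24 to 119 and from 23 to 146 tags, while Pp1s8_66V6†, described only as of this family, fell from 115 to 24 (4.21-fold). Starch synthase SS4 (Pp1s302_43V6), which initiates starch granules in Arabidopsis, rose from 15 to 115 tags (8.72-fold, 5.07 to 16.1). The sucrose transporter SUT4 (Pp1s89_139V6) rose from 107 to 643 tags (6.83-fold, 5.56 to 8.47). Genes used in starch degradation moved in both directions. DPE2 (Pp1s253_27V6), which handles maltose in the cytosol, fell from 1226 to 134 tags (8.05-fold, 6.73 to 9.69), ATGWD3 (Pp1s34_54V6), which phosphorylates glucan at the granule surface, fell from 276 to 31, and limit dextrinase (LDA†, Pp1s142_79V6), a debranching enzyme, rose from 72 to 271 (4.28-fold, 3.29 to 5.63).

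Malate synthase (MLS, Pp1s40_9V6), an enzyme of the glyoxylate cycle by which acetyl units from fat enter carbohydrate metabolism, rose from 21 to 846 tags (45.8-fold, 29.8 to 74.4). Phosphoenolpyruvate carboxykinase (PCK1, Pp1s1_815V6), which acts further along that route in seedlings, fell from 263 to 22 tags (10.5-fold, 6.80 to 17.1). The peroxisomal malate dehydrogenase PMDH1 (Pp1s38_300V6) fell from 544 to 64 tags (7.47-fold, 5.76 to 9.84). Fatty acid breakdown and peroxisome genes had a median of 0.75 but few calls, with 1 of 67 higher and 3 lower. Among the glycolytic genes hexokinase (HXK1, Pp1s414_10V6), which phosphorylates glucose, rose from 13 to 179 tags (15.7-fold, 8.93 to 29.99). An aldolase gene (Pp1s475_27V6) fell from 2411 to 184 tags (11.5-fold, 9.91 to 13.5). IAR4 (Pp1s169_138V6), matched to a subunit of pyruvate dehydrogenase, went from 2 to 110 tags, a ratio of 62.6 (16.9 to 523). Mitochondrial respiration had 2 of 90 genes higher and 2 lower (2.22% each).

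Fatty acid, lipid and wax synthesis had 9 of 93 genes lower and 2 higher. The committed step, acetyl-CoA carboxylase, was reduced in both of its forms. The single-chain enzyme ACC1 (Pp1s13_171V6) fell from 940 to 58 tags (14.3-fold, 10.9 to 18.9), and the subunits CAC2† (Pp1s18_23V6) and CAC3† (Pp1s234_46V6) of the plastid enzyme fell from 315 to 55 and from 142 to 17. KAS III (Pp1s119_22V6), which starts fatty acid chains, fell from 363 to 43 tags (7.42-fold, 5.40 to 10.4). The desaturase SSI2 (Pp1s157_50V6) rose from 32 to 193 tags (6.86-fold, 4.70 to 10.3). Isoprenoid genes had 8 of 74 lower and 2 higher. Both that rose, VTE5 (Pp1s83_66V6; 26 to 157 tags, 6.87-fold, 4.52 to 10.8) and HPT1 (Pp1s31_108V6; 29 to 119 tags, 4.67-fold, 3.09 to 7.27), act in the synthesis of vitamin E, a lipid antioxidant of plastids. The sterol gene CYP710A1 (Pp1s443_12V6) fell from 1075 to 63 tags (15-fold, 11.6 to 19.7).

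The uptake and assimilation of nitrogen was lower at several steps. In nitrogen assimilation 13 of 51 genes were lower (25.5%) and 3 higher. An AMT1;2 gene (Pp1s33_380V6), for an ammonium transporter, fell from 182 to 0 tags, at least 53.3-fold lower, and its neighbour Pp1s33_381V6† fell from 135 to 22 and the third AMT1;2 gene Pp1s475_29V6† from 435 to 66. Of 16 ammonium and nitrate transporters tested, 4 were lower and 0 higher, and their tags went from 1065 to 189. Glutamine synthetase, which fixes ammonium into glutamine, was lower in the plastid form GS2 (Pp1s40_17V6; 1033 to 79 tags, 11.5-fold, 9.14 to 14.6) and in the cytosolic form GSR2 (Pp1s241_33V6; 949 to 50 tags, 16.7-fold, 12.6 to 22.7). GLN1;4 (Pp1s345_10V6), another cytosolic form, went from 149 to 3 tags, a ratio of 43.7 (14.7 to 214). GLT1† (Pp1s79_140V6), the glutamate synthase that works with it, fell from 647 to 53 tags, and nitrite reductase (NIR1†, Pp1s197_146V6) from 192 to 19.

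The increases in this list concerned glutamate decarboxylase, which makes gamma-aminobutyrate, and allantoinase (ALN, Pp1s36_341V6; 14 to 103 tags), which releases nitrogen from purines. Glutamate decarboxylase itself was divided among its copies. Of the GAD4 genes, Pp1s8_163V6 rose from 5 to 348 tags (79.2-fold, 33.6 to 245), Pp1s10_153V6 rose from 20 to 139 (7.90-fold, 4.93 to 13.3) and the initially abundant Pp1s68_116V6 fell from 1205 to 127 (8.34-fold, 6.94 to 10.1).

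Sulfur assimilation and glutathione synthesis had 7 of 26 genes lower (26.9%) and 1 higher, and 11 of the 26 lay above the median of all genes. Of 3 genes for O-acetylserine (thiol) lyase, which forms cysteine, 0 were called. The sulfate transporter SULTR1;1 (Pp1s2_677V6) fell from 396 to 13 tags (26.8-fold, 15.5 to 50.8). ATP sulfurylase (APS1†, Pp1s331_37V6), which activates sulfate, fell from 218 to 28 tags, and a gene described as APS reductase 3† (Pp1s60_106V6), the next step, from 5758 to 835 (6.06-fold, 5.64 to 6.53). Sulfite reductase (SIR, Pp1s47_171V6) fell from 1462 to 130 tags (9.89-fold, 8.26 to 11.9). The enzymes that join the amino acids of glutathione fell too, GSH1 (Pp1s479_14V6) from 2175 to 176 tags (10.9-fold, 9.32 to 12.7) and GSH2† (Pp1s28_126V6) from 680 to 131 (4.56-fold, 3.78 to 5.55). The gene that rose was methionine gamma-lyase (MGL, Pp1s2_113V6), which breaks methionine down, from 126 to 1323 tags (11.9-fold, 9.94 to 14.5).

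Amino acid breakdown ran against the general direction, with 8 of 40 genes higher (20%) and 3 lower, a median of 0.48, and a share of tags that went from 0.488% to 0.779%. Some of the genes that rose act in the degradation of branched-chain amino acids. MCCA (Pp1s19_262V6), a subunit of methylcrotonyl-CoA carboxylase in the leucine pathway, rose from 44 to 269 tags (6.95-fold, 5.04 to 9.79), and CHY1 (Pp1s370_59V6), of the valine pathway, from 65 to 386 (6.75-fold, 5.18 to 8.93). Aminotransferase genes matched to BCAT5 were split, as Pp1s163_127V6 rose from 117 to 1050 tags (10.2-fold, 8.43 to 12.5) and Pp1s34_274V6 fell from 112 to 11. The aldehyde dehydrogenases ALDH7B4† (Pp1s237_29V6) and ALDH2B4† (Pp1s496_1V6), which oxidise reactive aldehydes, rose from 372 to 1585 and from 410 to 1784 tags. DELTA-OAT† (Pp1s126_82V6), an ornithine aminotransferase, rose from 33 to 135 tags (4.65-fold, 3.16 to 7.03). Outside this list, formate dehydrogenase (FDH†, Pp1s106_16V6), a mitochondrial enzyme, rose from 78 to 1004 tags (14.6-fold, 11.6 to 18.7).

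Vitamin, folate and nucleotide genes had 3 of 107 higher (2.8%) and 5 lower (4.67%). The gamma-glutamyl hydrolase gene GGH1 (Pp1s26_236V6) rose from 8 to 3779 tags (537-fold, 272 to 1245). PYR6 (Pp1s61_125V6) had 0 and 391 tags and was at least 148-fold higher. The genes for the 2 parts of the thiamin molecule moved in opposite directions. THIC (Pp1s88_47V6), which makes its pyrimidine part, rose from 74 to 1025 tags (15.8-fold, 12.4 to 20.2), while THI1 (Pp1s94_94V6), which makes the thiazole part, fell from 618 to 24 (22.6-fold, 15.1 to 35.6). TPK2 (Pp1s231_32V6), which converts thiamin to its active diphosphate, fell from 585 to 55 tags (9.35-fold, 7.09 to 12.6). Methyl cycle genes and methyltransferases had 5 of 181 higher (2.76%) and 6 lower (3.31%). Among those that rose were the protein-l-isoaspartate methyltransferase genes PIMT2 (Pp1s35_262V6; 58 to 770 tags, 15.1-fold, 11.55 to 20.07) and PIMT1 (Pp1s31_85V6; 28 to 126 tags, 5.12-fold). ATMS1 (Pp1s27_81V6), a methionine synthase, fell from 1089 to 58 tags (16.5-fold, 12.7 to 21.9), and the histone and protein arginine methyltransferase gene PRMT4B (Pp1s38_243V6) from 1308 to 209 (5.50-fold, 4.75 to 6.40). The adenosylhomocysteine hydrolase gene MEE58 (Pp1s20_229V6), which clears the by-product of methyl transfer, had 130 and 125 tags and was not called.

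Increases were frequent among proteins that accumulate in drying seeds and in plant tissue under water stress. LEA, dehydrin and cold-regulated proteins had 24 of 66 genes higher (36.4%) and 2 lower, a median of 1.59, and 0.799% of tags at 0 h against 2.17% at 24 h. The genes that rose did so by 4.70-fold to 440-fold, with a median of 17.7-fold. Pp1s156_7V6 rose from 18 to 1555 tags (98.3-fold, 62.0 to 166), Pp1s118_232V6 from 8 to 640 (91.0-fold, 45.9 to 212) and LEA14† (Pp1s324_46V6) from 77 to 1338 (19.8-fold, 15.7 to 25.2). Pp1s234_91V6 went from 3 to 578 tags, a ratio of 219 (74.6 to 1066). ERD10† (Pp1s442_22V6), a dehydrin that was already expressed in t-0 protoplasts, rose from 346 to 1541 tags (5.07-fold, 4.51 to 5.71).

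The families within this list differed. Genes described as LEA proteins had 11 of 30 higher and 0 lower, with a median of 1.22. Dehydrins and cold-regulated proteins had 3 of 7 higher and 0 lower, a median of 0.03, and 9368 and 11231 tags. Dehydration-responsive genes had 1 of 11 higher and 1 lower, with a median of -0.04. Of the AWPM-19-like proteins, small membrane proteins known from wheat cells treated with abscisic acid, 5 of 6 were called higher. Their median log2 change was 4.34, and together they went from 424 to 4192 tags. Pp1s119_27V6† rose from 11 to 560 tags (57.9-fold, 32.1 to 117) and the most abundant, Pp1s102_81V6†, rose from 364 to 2851 (8.91-fold, 7.98 to 9.96). The exceptions in the list were GEA6 (Pp1s12_68V6), matched to an Arabidopsis seed LEA protein, which went from 119 to 2 tags, a ratio of 52.3 (14.2 to 437), and ERD4 (Pp1s213_49V6), which fell from 131 to 11 (10.5-fold, 5.66 to 21.5). Early light-induced proteins, relatives of the antenna that protect plastids and are formed under light and desiccation stress, were also higher in part, against the fall of the antenna genes. ELIP1 genes Pp1s196_69V6 and Pp1s371_45V6 went from 2 to 391 tags, a ratio of 222 (61.1 to 1842), and from 0 to 127, which is at least 48.2-fold. The third tested, Pp1s77_163V6, had 182 and 118 tags and was not called, and the other listed genes had too few tags to be tested.

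Heat shock proteins and chaperones, which fold proteins and prevent their aggregation, moved the other way. Of 200 tested, 27 were lower (13.5%) and 2 higher, and their share of tags went from 2.01% to 1.09%. HSP90 and HSP101 genes had 4 of 5 lower, among them an HSP90.1 gene† (Pp1s291_62V6; 642 to 80 tags) and HSP101† (Pp1s300_55V6; 963 to 153 tags). HSP91† (Pp1s40_190V6), which despite its name is a large relative of HSP70, fell from 341 to 27 tags (11.1-fold, 7.50 to 17.1). Genes described as HSP70 had 4 of 14 lower, led by an HSC70-1 gene (Pp1s298_26V6) that fell from 992 to 36 tags (24.2-fold, 17.4 to 34.8). Another HSC70-1 gene (Pp1s97_279V6), the reference gene of the study's real-time PCR, had 379 and 581 tags. It was 1.74-fold higher (1.53 to 1.99) and was not called. The BAG6 co-chaperone genes, which bind HSP70 and calmodulin in Arabidopsis, fell from 439 to 7 tags (Pp1s107_77V6; 55.1-fold, 26.5 to 138), from 1719 to 64 (Pp1s60_190V6; 23.6-fold, 18.4 to 30.8) and from 199 to 33 (Pp1s172_32V6†). Of 6 heat shock factors, the transcription factors of these genes, 2 were lower and 0 higher. HSF1† (Pp1s31_388V6) fell from 327 to 42 tags and HSF3† (Pp1s249_84V6) from 460 to 98.

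Small heat shock proteins were divided. Of 22 tested, 6 were lower and 2 higher. Pp1s8_86V6 fell from 1518 to 42 tags (31.8-fold, 23.4 to 44.3) and the plastid form HSP21† (Pp1s97_106V6) from 1063 to 96 (9.74-fold, 7.90 to 12.1). Pp1s350_28V6 rose from 86 to 399 tags (5.28-fold, 4.17 to 6.74) and SLT1 (Pp1s9_138V6), known for salt tolerance, from 35 to 181 (5.88-fold, 4.08 to 8.71). CHIP† (Pp1s245_25V6), a ubiquitin ligase that works with chaperones, fell from 691 to 49 tags (12.4-fold, 9.27 to 16.9), and the endoplasmic reticulum chaperone BIP2† (Pp1s181_3V6) from 1006 to 115 (7.69-fold, 6.34 to 9.41).

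Antioxidant enzymes had 4 of 41 genes higher and 4 lower. The peroxiredoxin gene PER1 (Pp1s12_126V6) rose from 17 to 3643 tags (244-fold, 152 to 419). Dehydroascorbate reductase (DHAR2, Pp1s271_8V6) had 0 and 538 tags and was at least 204-fold higher. Catalase (CAT1, Pp1s3_465V6), which breaks down hydrogen peroxide, rose from 85 to 685 tags (9.17-fold, 7.31 to 11.6). The L-ascorbate oxidases Pp1s308_11V6 and Pp1s144_8V6, enzymes of the wall space, fell from 3006 to 193 tags (13.7-fold, 11.8 to 15.9) and from 629 to 94 (5.88-fold, 4.73 to 7.39). Class III peroxidases, which are secreted to the wall, had 5 of 17 lower and 0 higher, 2 of them with 0 tags at 24 h. Phenylpropanoid and flavonoid genes had 7 of 40 lower and 0 higher with a median of -1.76. PAL4 (Pp1s52_44V6), for phenylalanine ammonia-lyase at the entry of the pathway, fell from 182 to 5 tags (32.01-fold, 13.5 to 99.8), and CYP98A3 (Pp1s366_10V6), a hydroxylase of the pathway, went from 185 to 2, a ratio of 81.3 (22.2 to 677). Of the glutathione S-transferases, 2 of 23 were lower and 1 higher, and the second GSTF9 gene (Pp1s26_72V6), with 6632 and 5866 tags, was level at 1.01-fold (0.971 to 1.04).

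DNA repair had 4 of 56 genes higher (7.14%) and 1 lower, with a median of 0.78. Among those that rose, NTH2 (Pp1s65_4V6), a base excision glycosylase, went from 25 to 138 tags (6.28-fold, 4.08 to 10.04), and POLH (Pp1s69_54V6), a polymerase that copies past ultraviolet damage, from 17 to 101 (6.76-fold, 4.02 to 12.1). The Werner-like exonuclease gene WRNEXO (Pp1s135_47V6) fell from 317 to 56 tags.

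Ribosomal proteins of the cytosol and mitochondria contrasted with those of the plastid. Of 382 genes tested, 257 lay above the median of all genes, the list median was 0.44, and the share of tags went from 8.23% to 10.7%. Calls were few, with 9 higher (2.36%) and 3 lower, which is near the 2.43% of all genes for increases. An L22e gene (Pp1s283_20V6) rose from 15 to 250 tags (19.0-fold, 11.3 to 34.4), an L32e gene (Pp1s249_85V6) from 8 to 111 (15.8-fold, 7.74 to 37.5) and an L30/L7 gene (Pp1s7_369V6) from 161 to 921 (6.51-fold, 5.50 to 7.74). The abundant L14 gene Pp1s83_247V6† rose from 633 to 2417 tags (4.34-fold, 3.98 to 4.75). Of the 3 that fell, 2 were S16 genes (Pp1s38_249V6, 156 to 10 tags, and Pp1s11_225V6, 647 to 77 tags). The other was an L19 family gene (Pp1s10_389V6, 317 to 51 tags). This list took the ribosomal proteins that the plastid list left out, so that some of the plastid may remain in it. The S30 gene Pp1s283_53V6, among the 10 genes with most tags at 0 h, had 6598 and 5114 tags and was not called.

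Translation factors and tRNA synthetases had 2 of 158 genes higher (1.27%) and 6 lower (3.8%), both below the shares of all genes. An elongation factor gene of the EFG/EF2 family (Pp1s266_52V6) fell from 276 to 8 tags (30.3-fold, 15.2 to 71.0). While the abundant SUI1 gene named above fell, another gene of that family (Pp1s23_225V6) rose from 28 to 144 tags (5.85-fold, 3.88 to 9.11). Genes of protein degradation were called lower at shares no higher than the 4.88% of all genes. The proteasome had 1 of 61 genes lower, its activator PA200 (Pp1s166_98V6; 252 to 51 tags, 4.35-fold, 3.21 to 5.99), and 0 higher. Proteases and autophagy genes had 11 of 275 lower (4.00%) and 1 higher, the cysteine protease gene RD21 (Pp1s369_30V6), which rose from 9 to 134 tags (16.9-fold, 8.66 to 37.8). Ubiquitin ligases and F-box proteins had 17 of 351 lower (4.84%) and 4 higher. Cullin 1 (CUL1, Pp1s395_40V6), the scaffold of one class of these ligases, had 0 and 116 tags and was at least 44.0-fold higher.

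Genes that remodel the wall fell more often than they rose. This list had 23 of 131 genes lower (17.6%) and 3 higher, and its share of tags went from 1.05% to 0.491%. Pectin lyases and esterases, which cut or modify pectin, had 7 of 29 lower and 1 higher, and together went from 10803 to 2383 tags. The pectin lyase-like genes Pp1s236_72V6 and Pp1s215_36V6† fell from 762 to 19 tags (35.3-fold, 22.4 to 58.9) and from 4223 to 295 (12.6-fold, 11.2 to 14.2). XTH9 (Pp1s81_246V6), which cuts and rejoins xyloglucan, fell from 994 to 28 tags (31.2-fold, 21.5 to 47.2). Expansins, which loosen walls, were split, as EXPA14 gene Pp1s75_138V6 rose from 29 to 124 tags (4.86-fold, 3.23 to 7.56) and EXPA14 gene Pp1s363_2V6† fell from 131 to 5 (23.0-fold, 9.63 to 72.1).

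Wall synthesis had 5 of 125 genes lower (4.0%) and 2 higher (1.6%), both below the shares of all genes. TBL25 (Pp1s326_28V6), of a family that acetylates wall polymers, went from 244 to 3 tags, a ratio of 71.5 (24.2 to 349). CSLD6 (Pp1s372_55V6), a cellulose synthase-like gene, fell from 226 to 17 tags (11.7-fold, 7.14 to 20.4), and the callose synthase gene GSL10 (Pp1s160_88V6) from 104 to 14. TBL16 (Pp1s101_203V6), of the same family as TBL25, rose from 42 to 165 tags (4.47-fold, 3.17 to 6.43). In the cytoskeleton 2 of 122 genes were higher (1.64%) and 1 lower (0.82%), the actin gene ACT7 (Pp1s381_21V6; 584 to 106 tags, 4.84-fold, 3.93 to 6.02).

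Vesicle traffic had 10 of 350 genes lower (2.86%) and 5 higher (1.43%), both below the shares of all genes. Single related components moved apart. SYTB (Pp1s9_391V6), a calcium-binding synaptotagmin that binds lipids, rose from 68 to 809 tags (13.5-fold, 10.6 to 17.6), and EXO70G1 (Pp1s38_352V6), of the exocyst that tethers secretory vesicles, from 34 to 154 (5.15-fold, 3.53 to 7.71). VPS24.1 (Pp1s104_29V6), of the ESCRT machinery that sorts membrane proteins for degradation, had 0 and 113 tags and was at least 42.8-fold higher. Among the syntaxins, which fuse vesicles with their target, SYP51 (Pp1s2_172V6) rose from 25 to 130 tags, while SYP41 (Pp1s224_112V6) and SYP124 (Pp1s300_43V6) fell from 114 to 9 and from 537 to 86.

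Transporters of ions, nutrients, sugars and water kept 2.96% of tags at both times, with 17 of 462 genes higher (3.68%) and 24 lower (5.19%), close to the shares of all genes, but single genes changed strongly. NIP5;1 (Pp1s37_249V6), matched to an Arabidopsis boric acid channel of the aquaporin family, rose from 49 to 3142 tags (72.9-fold, 55.0 to 98.8) and was the only called gene of 10 aquaporins tested. HMA5 (Pp1s83_69V6), a copper-transporting ATPase, fell from 4875 to 125 tags (34.3-fold, 28.7 to 41.3). Of 12 genes described as mechanosensitive channels, which open when a membrane is stretched, 2 were called higher and 0 lower. Pp1s206_53V6 rose from 5 to 227 tags (51.6-fold, 21.8 to 161) and MSL4† (Pp1s2_432V6) from 17 to 142 (9.50-fold, 5.73 to 16.8), while the more abundant MSL2 gene Pp1s1_164V6† had 412 and 290 tags and was not called. TPC1† (Pp1s258_30V6), a calcium-permeable channel of the vacuole, rose from 83 to 650 tags (8.91-fold, 7.08 to 11.3). The phosphate transporter PHT1;7† (Pp1s53_36V6) fell from 1338 to 226 tags and GPT2† (Pp1s1_315V6), which carries glucose 6-phosphate into plastids, from 502 to 35 (12.6-fold, 8.95 to 18.3).

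ABC transporters, pumps driven by ATP, had 11 of 79 genes lower (13.9%) and 1 higher. A PEN3 gene (Pp1s15_137V6) and PDR12 (Pp1s12_29V6), pumps of the plasma membrane known from defence in Arabidopsis, fell from 808 to 71 tags (10.01-fold, 7.84 to 12.9) and from 1685 to 175 (8.47-fold, 7.24 to 9.95). ABCG14 (Pp1s270_82V6), which moves cytokinin out of root cells in Arabidopsis, rose from 44 to 405 tags (10.5-fold, 7.66 to 14.6).

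Transcription factors outside the AP2/ERF family had 29 of 372 genes lower (7.80%) and 10 higher (2.69%). The NAC family had 3 of 22 lower, 0 higher and a median of -2.06. CUC2 (Pp1s227_100V6), known for setting organ boundaries in Arabidopsis, fell from 130 to 0 tags, at least 38.1-fold lower, RD26† (Pp1s140_93V6), a factor of the dehydration response, from 117 to 12 (8.57-fold, 4.73 to 17.1), and NAC2† (Pp1s8_36V6) from 2023 to 400 (4.45-fold, 3.99 to 4.96). WRKY factors, known mainly from defence, had 3 of 19 lower and 1 higher, with WRKY50 (Pp1s426_30V6) at 211 and 9 tags (20.6-fold, 10.7 to 45.7) and WRKY7† (Pp1s48_141V6) at 96 and 394 (4.67-fold higher, 3.73 to 5.90). Homeodomain factors had 5 of 79 lower and 0 higher. WOX13 (Pp1s224_106V6), a homeodomain factor known in moss for its role in regeneration, had 281 and 129 tags, a difference of 1.92-fold (1.55 to 2.38) that was not called. ABI3† (Pp1s104_58V6), a factor of seed maturation and of desiccation tolerance in moss, fell from 715 to 140 tags (4.49-fold, 3.74 to 5.42).

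The NF-Y and MADS families had more increases than decreases, on few calls. NF-Y subunits, which together form a CCAAT-binding complex, had 3 of 16 higher and 1 lower, and MADS factors 2 of 17 higher and 0 lower. Over all genes 2.43% were higher and 4.88% lower. The MADS median was 0.11, and the tags of that family went from 2121 to 1888. Among other families, bHLH factors had 3 of 54 higher and 3 lower. MYB factors had 0 of 39 higher and 4 lower, and bZIP factors 0 of 28 higher and 2 lower. NF-YC2 gene Pp1s370_63V6 rose from 25 to 356 tags (16.2-fold, 10.8 to 25.4) and NF-YB3† (Pp1s25_89V6) from 39 to 169, while the second NF-YC2 gene Pp1s51_318V6† fell from 220 to 33 (5.86-fold, 4.05 to 8.73). The MADS genes matched to AGL62 (Pp1s88_174V6) and PHE1 (Pp1s37_353V6), which in Arabidopsis act in the endosperm, rose from 4 to 115 tags (32.7-fold, 12.4 to 122) and from 39 to 287 (8.37-fold, 5.98 to 12.02). The AP2/ERF family had 4 of 95 higher and 4 lower (4.21% each). Its largest increase was that of Pp1s120_13V6, from 11 to 352 tags (36.4-fold, 20.1 to 73.6), and ERF-1 (Pp1s60_148V6) fell from 218 to 12 (15.97-fold, 8.96 to 31.4).

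Hormone genes had 15 of 185 lower (8.11%) and 4 higher. Genes grouped under jasmonate by words in their descriptions had 6 of 31 lower and 0 higher. Jasmonate regulates wound and defence responses in flowering plants, and a role of each grouped gene in its pathway was not tested. The genes of this group held 15153 of the 35581 tags of the list at 0 h and 3676 of 15414 at 24 h. OPR1 genes, for 12-oxophytodienoate reductases, fell from 2989 to 81 tags (Pp1s326_44V6; 32.5-fold, 26.02 to 40.98) and from 5713 to 656 (Pp1s1_405V6†; 7.66-fold, 7.06 to 8.32). Among genes with a TIFY domain, TIFY10B (Pp1s442_10V6) fell from 754 to 54 tags (12.3-fold, 9.31 to 16.5). The TIFY8 genes Pp1s175_59V6† and Pp1s244_32V6† fell from 509 to 96 and from 259 to 56. Of the genes tied to cytokinin, IPT9 (Pp1s280_8V6), matched to an enzyme of its synthesis or of tRNA modification, fell from 122 to 7 tags (15.3-fold, 7.22 to 38.9), and the response factors CGA1 (Pp1s3_329V6) and CRF2 (Pp1s293_60V6) rose from 34 to 178 and from 25 to 104. A gene matched to the cytokinin receptor WOL† (Pp1s6_398V6) fell from 715 to 88 tags (7.14-fold, 5.72 to 9.02). GA2OX8 (Pp1s50_176V6), matched to an enzyme that inactivates gibberellins, went from 2 to 245 tags, a ratio of 139 (38.2 to 1157). The auxin family had 5 of 45 genes lower and 1 higher, and 2 of 21 genes tied to abscisic acid were lower and 0 higher, namely ABI3, given above, and NCED9† (Pp1s412_7V6), of the family that makes the first committed step of its synthesis, which fell from 141 to 25 tags (4.96-fold).

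Calcium, MAP kinase, SnRK and phosphatase signalling had 14 of 211 genes lower (6.64%) and 3 higher, and calcium sensors were on both sides. All 3 that rose have the EF-hand calcium-binding fold, Pp1s218_100V6 with 242 and 2187 tags (10.3-fold, 8.996 to 11.8), Pp1s263_45V6 with 36 and 540 (17.1-fold, 12.2 to 24.6) and CML23 (Pp1s263_50V6) with 39 and 239 (6.97-fold, 4.95 to 10.1). Calmodulin genes CAM4 (Pp1s242_98V6) and CAM5† (Pp1s56_122V6) fell from 645 to 46 tags (12.3-fold, 9.14 to 17.01) and from 103 to 5 (18.1-fold, 7.52 to 57.0). CPK16 (Pp1s199_57V6), a calcium-dependent kinase, fell from 1483 to 143 tags (9.12-fold, 7.68 to 10.9). KIN10† (Pp1s28_12V6), the catalytic subunit of the energy-sensing kinase SnRK1, fell from 321 to 47 tags (6.01-fold, 4.41 to 8.34). The list of receptor-like kinases had 5 of 135 genes lower (3.7%) and 2 higher (1.48%), both below the shares of all genes. A leucine-rich repeat kinase gene (Pp1s163_16V6) rose from 21 to 100 tags (5.42-fold, 3.36 to 9.13). The other, Pp1s55_61V6, is described by its LysM domain and not as a kinase, and rose from 8 to 207 (29.4-fold, 14.7 to 69.1). SD2-5 (Pp1s35_376V6) fell from 1585 to 104 tags (13.4-fold, 10.98 to 16.5).

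Few genes of the cell cycle reached the minimum set for a call, since 9 of the 109 tested cell cycle, histone and DNA replication genes had 100 tags in either library. Of these 2 were lower and 0 higher. CKS2 (Pp1s36_271V6), which binds cyclin-dependent kinases, fell from 192 to 36 tags (4.69-fold, 3.27 to 6.90), and SYN1 (Pp1s351_7V6), of the cohesin family that holds sister chromatids together, went from 136 to 3, a ratio of 39.9 (13.4 to 196). Chromatin modifiers had 5 of 170 lower (2.94%) and 1 higher (0.588%), both below the shares of all genes. The gene that rose, SWI3A (Pp1s398_25V6) of a nucleosome remodelling complex, went from 37 to 176 tags (5.41-fold, 3.78 to 7.94). Splicing and RNA-binding proteins had 5 of 290 genes higher (1.72%) and 4 lower (1.38%). Their share of tags went from 1.89% to 3.25%. CCR1 alone held 6847 of their 42568 tags at 0 h and 23375 of 56837 at 24 h. YLS8 (Pp1s141_103V6), a small protein of the spliceosome, rose from 28 to 131 tags (5.32-fold, 3.52 to 8.32). Of 47 pentatricopeptide repeat proteins, which process RNA in organelles, 0 were called in either direction.

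Members of a gene family did not always move together. Of 3189 Arabidopsis genes matched by at least 2 tested moss genes, 99 had at least 2 called moss genes. In 64 of them all called genes were lower, in 18 all were higher and in 17 they were called in opposite directions. The genes of a pair are thus distinct copies that share their nearest Arabidopsis gene. In the DUF567 family, of unknown function, Pp1s147_26V6 rose from 61 to 3208 tags (59.8-fold, 46.4 to 78.4) and Pp1s127_40V6 fell from 255 to 12 (18.7-fold, 10.5 to 36.6). KAB1, a beta subunit of potassium channels, had nearly equal copies at 0 h, of which Pp1s24_247V6 rose from 210 to 2075 tags (11.2-fold, 9.75 to 13.0) and Pp1s83_53V6 fell from 195 to 11 (15.6-fold, 8.52 to 31.7). The same held for BCAT5, whose second gene (Pp1s34_274V6) fell from 112 to 11 tags (8.95-fold, 4.82 to 18.5). It held too for HMT2, a homocysteine methyltransferase, with 138 and 828 tags for Pp1s8_46V6 (6.82-fold higher, 5.69 to 8.23) and with 141 and 2 tags for Pp1s10_84V6, a ratio of 61.99 (16.9 to 517).

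Other pairs began farther apart. LIL3:1, an antenna relative that in Arabidopsis serves chlorophyll synthesis, rose in Pp1s79_93V6 from 20 to 165 tags (9.38-fold, 5.88 to 15.8) and fell in Pp1s336_22V6 from 296 to 10 (26.03-fold, 14.0 to 54.8). For TT7, a cytochrome P450 of flavonoid synthesis in Arabidopsis, Pp1s198_7V6 rose from 15 to 452 tags (34.3-fold, 20.6 to 61.7) and Pp1s144_59V6 fell from 129 to 12 (9.45-fold, 5.23 to 18.8). GDSL-like lipase genes went from 313 to 3858 tags (Pp1s51_28V6; 14.0-fold, 12.5 to 15.8) and from 166 to 9 (Pp1s485_2V6; 16.2-fold, 8.34 to 36.1). Heavy metal transport genes went from 52 to 1178 tags (Pp1s57_24V6; 25.8-fold, 19.5 to 34.7) and from 364 to 24 (Pp1s3_318V6; 13.3-fold, 8.82 to 21.1).

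**Figure D4:**
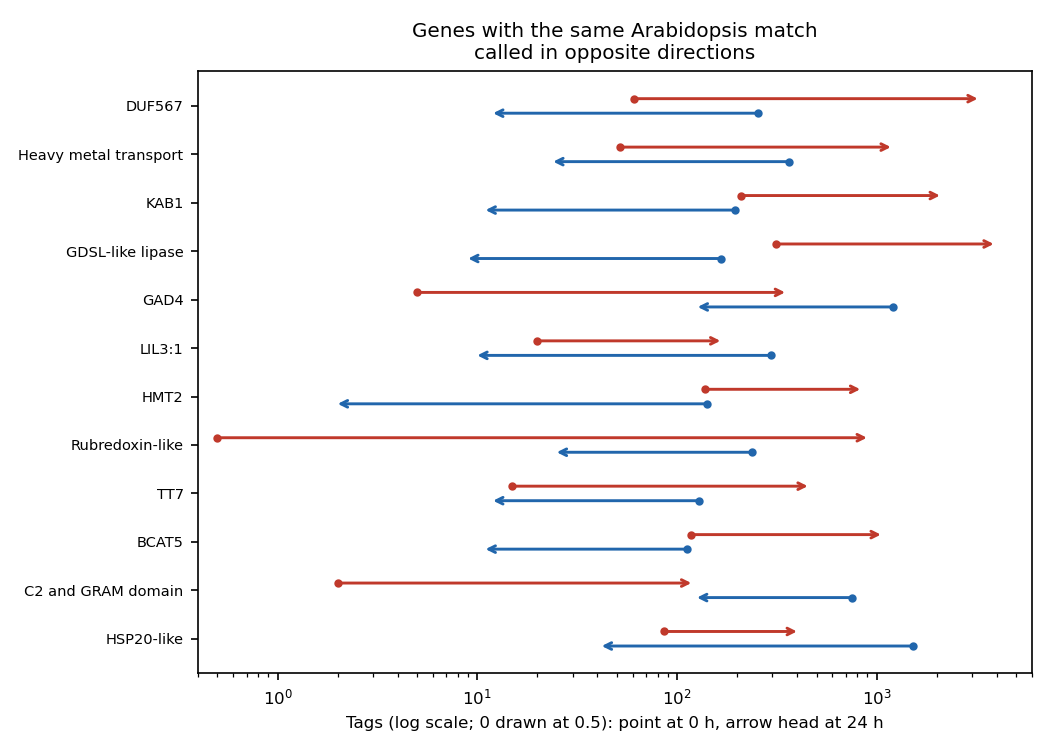
Tags at 0 h (points) and 24 h (arrow heads) on a log scale, with 0 drawn at 0.5, for 12 of the 17 cases in which moss genes with the same Arabidopsis match were called in opposite directions. Red arrows are genes called higher and blue arrows genes called lower. The KAB1 copies start at 210 and 195 tags and end at 2075 and 11.

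Genes without an Arabidopsis match were also among those called. Of 2082 such genes tested, 86 were called higher (4.13%) and 70 lower (3.36%), against 2.15% higher and 5.13% lower among the 12995 genes with a match. Several of them that were barely detected in t-0 protoplasts became abundant. Pp1s32_209V6† went from 2 to 3708 tags, a ratio of 2109 (583 to 17420). Pp1s37_251V6† rose from 17 to 1420 tags (95-fold, 59.1 to 164), Pp1s109_92V6† from 21 to 1542 (83.5-fold, 54.4 to 135) and Pp1s66_199V6† from 42 to 1823 (49.4-fold, 36.4 to 68.7). In the DUF1264 family, which has Arabidopsis matches of unknown function, Pp1s90_196V6† rose from 4 to 197 tags (56.0-fold, 21.5 to 208), Pp1s317_73V6† from 6 to 159 (30.1-fold, 13.5 to 83.4), and Pp1s340_19V6 went from 2 to 299, a ratio of 170 (46.7 to 1410).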

How the data were processed

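Tags next to CATG sites were sequenced from 1 pooled library per time point. The authors removed adaptor and low-quality tags and tags seen once, mapped the rest with Bowtie allowing 1 mismatch, dropped tags of several genes and deposited summed counts per gene. The other deposited column, headed TPM, gives tags per 100000 clean tags and served only to recover clean tag totals (3314401 at 0 h, 2743030 at 24 h) for an alternative scaling.

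Deposited counts were scaled by TMM over all 4 libraries (factors 1.18 at 0 h and 1.33 at 24 h), the 48 h and 72 h libraries entering nothing else. Genes with at least 10 tags in both libraries together were tested by edgeR's exact test with dispersion 1e-09 and Benjamini-Hochberg adjustment. The quasi-likelihood test cannot be fitted without replicates. Intervals of ratios are exact conditional (Clopper-Pearson). Log2 changes carry a prior count of 0.5, and the 4-fold threshold was applied to them. The tests were checked on simulated data. The simulation held counting error only, so it cannot show how variation between cultures would affect the calls.

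Lists were drawn by words in the Arabidopsis descriptions, and wrong matches that were found on reading the descriptions were removed, though others may remain. A gene may be in several lists. Genes were ranked by whichever bound of the interval lay closer to 1. The rule for naming took the 25 highest-ranked rises and falls with a description, 4 per list and direction, the 10 genes with most tags per library, 12 opposite pairs, all members of lists of up to 10 genes, and genes the study gives by ID. Not all genes that the rule allows are named. Members, lists and questions were chosen with earlier results of these data known. Columns of per-sample values left unmapped numbered 0. Software was Python 3.11.15 with pandas 2.3.3, scipy 1.17.1 and matplotlib 3.10.9, and R 4.3.3 with DESeq2 1.42.0 and edgeR 4.0.16.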

Additional observations from a re-analysis of the deposited data

How the results depend on the processing

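No paired analysis was possible because each time point has 1 library, and for the same reason no replicate could be left out. Over 422 genes named or considered for naming and 10 alternatives to scaling, tag minimum, filter, fold, interval and dispersion, 3705 values stayed on their side of the thresholds, 498 lost their call and 17 gained one. Many of these genes were chosen for their high rank in the same data. Alternatives with a lower tag minimum, no filter or a lower fold kept all 366 and 736 calls. The counts thus do not measure how stable calls are in general. How many genes were called depended on the thresholds. With a minimum of 30 tags 791 genes were higher and 1283 lower, with 300 tags 140 and 341, and with a fold threshold of 2, 951 and 1726. With an assumed coefficient of variation of 0.4 between cultures, 160 and 213 genes were called. Scaling had a smaller effect. Plain library totals moved the median log2 change of all genes by 0.17, to 0.09, and gave 418 higher and 658 lower, so that increases were 38.8% of the calls rather than 33.2%. The range of that share over all alternatives was 29.1% to 42.9%. Between 34 and 41 of the 51 lists had more genes lower than higher. Over the alternatives the antenna had 3 to 24 genes lower, plastid ribosomal proteins 8 to 42, chaperones 9 to 49, and wall remodelling 10 to 34, while LEA, dehydrin and cold-regulated proteins had 16 to 27 higher and DNA repair 0 to 8. Amino acid breakdown had 2 to 14 higher and 0 to 5 lower. Cytosolic and mitochondrial ribosomal proteins had 2 to 52 higher. Opposite pairs, whose alternatives were chosen after seeing the data, numbered 54 with 30 tags, 3 with 300 tags, 95 at 2-fold and 4 with the assumed variation. Most genes of the cell cycle list had under 100 tags, and with a minimum of 30 tags 3 of them were higher and 9 lower.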
